A study of Mus musculus with 7 samples.

Results

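The genes described here are 10 hepatic steroid reductases and dehydrogenases, taken from the 23347 genes counted in each liver. They are Akr1c6, Akr1c14, Akr1c18, Akr1c20 and Akr1d1 of the aldo-keto reductases, Hsd3b2, Hsd3b3 and Hsd3b5 of the 3β-hydroxysteroid dehydrogenases, Hsd11b1 and Srd5a1. The 10 genes were selected on their enzyme families with the comparison of these same livers in view, so their changes are described and not tested anew. In total, 9 of the 10 were among the 15179 genes with enough counts to be tested, and Hsd3b5 was not.

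RNA-seq was performed on whole liver from male C57BL/6 mice, 1 library per mouse. B4galt1 flox/flox mice (n=4, replicates 1 to 4) carried the floxed alleles without Cre and are called WT in the sample labels. B4galt1 hep-/- mice (n=3, replicates 1 to 3) carried the same alleles with an albumin-driven Cre, which removes the galactosyltransferase gene B4galt1 in hepatocytes and leaves it in the other cells of the liver. Both groups started the CDAHFD, a high-fat diet low in methionine and without choline that causes steatohepatitis, at 6 to 8 weeks of age and stayed on it for 15 weeks, so no liver here came from a chow-fed mouse. Each animal gave a single liver sample, and fewer cells of a type cannot be told apart from less RNA per cell in whole tissue.

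The liver is the main site where circulating steroid hormones are reduced and then conjugated for excretion, and where cholesterol becomes bile acid. Reductases such as Srd5a1 and Akr1d1 saturate the A ring in the 5α or the 5β configuration, and the Akr1c enzymes then reduce keto groups at positions 3, 17 or 20. Hsd11b1 works in the opposite sense for glucocorticoids, regenerating active corticosterone from its inert 11-keto form, and the 3β-hydroxysteroid dehydrogenases interconvert 3-hydroxy and 3-keto steroids. In mice, several liver genes of steroid metabolism differ between males and females under the control of pulsatile growth hormone.

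B4galt1 itself was measured first. Its normalised read count, given as CPM (counts scaled to a common library total) after TMM normalisation, was 48.7, 53.0, 49.2 and 51.6 in the 4 flox/flox livers and 28.4, 23.9 and 53.7 in the 3 livers labelled hep-/-. On this scale the third hep-/- liver was slightly above all 4 controls. By deposited FPKM, scaled to the library total, it was below them, at 11.9 against 12.2 to 14.04, with 6.47 and 6.52 in the other 2 hep-/- livers. By TMM-normalised counts the log2 fold change was −0.52 ± 0.26 (SE, edgeR adjusted p = 0.181). It was −0.96 and called without hep-/- replicate 3, −0.30 and not called without hep-/- replicate 2, and called with all 7 livers by limma on filtered log2(FPKM + 1) (−0.67) and log2(FPKM + 0.1) (−0.73), but not by the former without the filter. The library labelled hep-/- replicate 3 thus had more B4galt1 than the other 2 on both scales. Its mitochondrial share of counts was 14.4%, against at most 7.996% in flox/flox livers. Group names follow the labels. Library totals were 37838654 to 39668509 counts in flox/flox and 30608271 to 34586588 in hep-/- livers, with 5.79% ± 1.70 and 19.7% ± 4.58 (SD) of counts from 13 mitochondrially encoded genes. The part of this mitochondrial share in the values below was not tested beyond a fit without these genes, in which each of the 4 called members stayed called.

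A gene was called when its adjusted p was under 0.05 and its log2 fold change beyond 0.58, a 1.5-fold change. Of all tested genes, 15.8% were called, 7.83% lower and 8% higher in hep-/- livers, and the values of the groups did not overlap for 28.6%. The number of called genes, 2404 of 15179, depended on single livers, with 885 of 15005 without flox/flox replicate 2, 1405 of 15015 without flox/flox replicate 3, 1552 of 15035 without flox/flox replicate 4 and 1199 of 15450 without hep-/- replicate 2. Of the 9 tested members 4 were called, 3 of them lower (Akr1c6, Srd5a1 and Hsd3b3) and 1 higher (Akr1c18). For 5 members the 2 groups did not overlap, namely these 4 and Akr1c20, which lay lower in hep-/- livers. The median log2 fold change was −0.36 over the 9 members and 0.02 over all tested genes. Without hep-/- replicate 3, which had the most B4galt1 of its group, 5 members were called, the same 4 (Akr1c6 at −1.89, Srd5a1 at −1.58, Hsd3b3 at −0.97 and Akr1c18 at 2.87 on the log2 scale) and Akr1c20 at −1.25. In that fit 2157 of all 15639 tested genes were called, 1175 lower and 982 higher. Because the comparison was in view when the genes were selected, nothing is read from the distance between these shares.

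**Figure D1:**
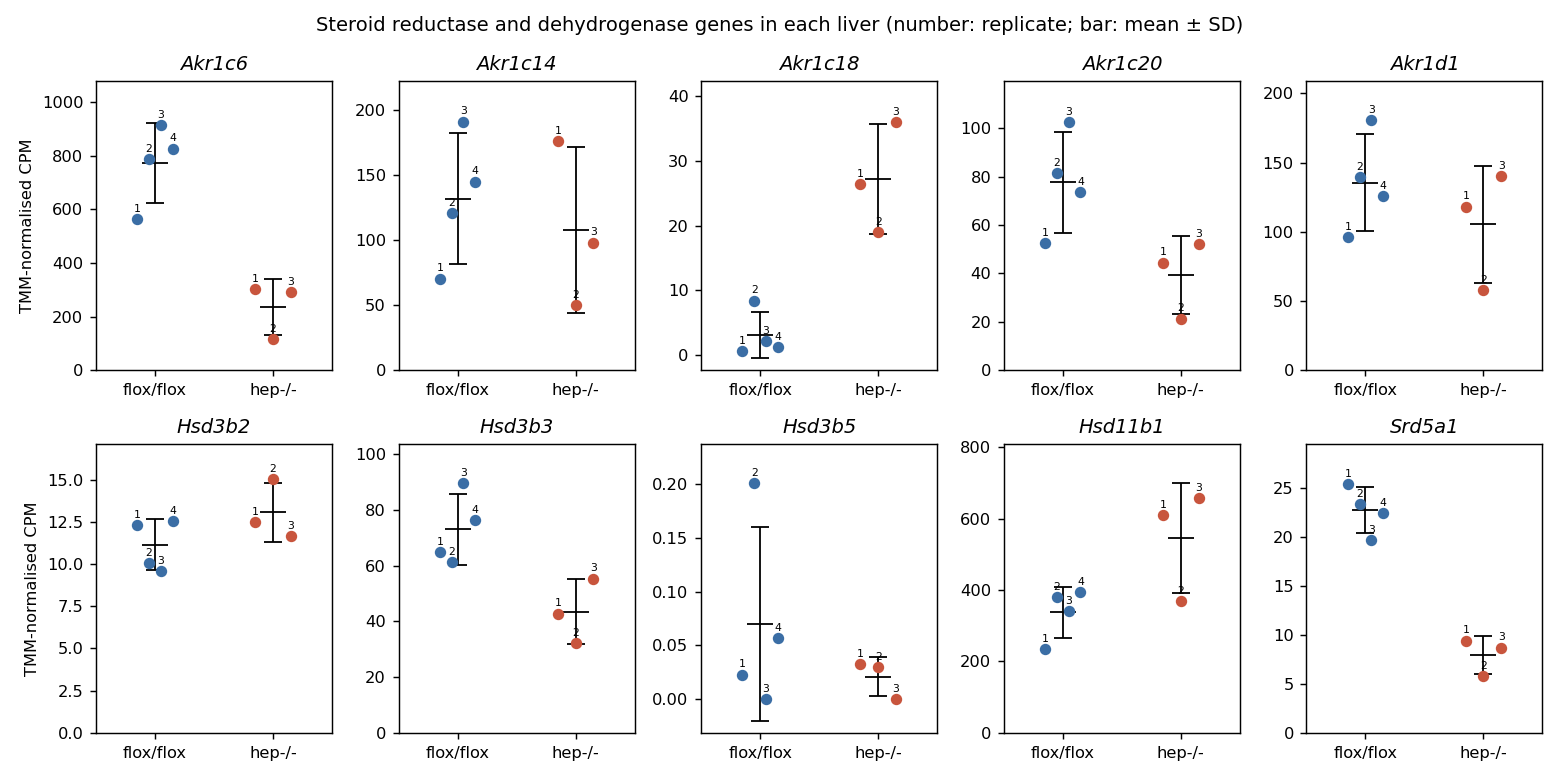
Normalised read count (TMM-normalised CPM, linear axes) of the 10 genes in each liver, flox/flox (n=4, blue) and hep-/- (n=3, red), with the replicate number beside each point and the mean ± SD as a bar. The hep-/- points of Akr1c6, Akr1c20, Hsd3b3 and Srd5a1 lie below all flox/flox points and those of Akr1c18 above them, while Hsd3b5 stays near 0 throughout.

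Akr1c6 encodes a 17β- and 3α-hydroxysteroid dehydrogenase that is abundant in mouse liver. Its normalised read count was 563, 788, 914 and 826 CPM in flox/flox livers and 303, 117 and 293 CPM in hep-/- livers. Every hep-/- liver was below every flox/flox liver, with hep-/- replicate 2 the lowest. The group means were 773 ± 150 and 237 ± 104 CPM (SD, n=4 and 3), a log2 fold change of −1.70 ± 0.33 (SE), or 3.26-fold lower.

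Akr1c18 encodes the 20α-hydroxysteroid dehydrogenase that inactivates progesterone, best known from the corpus luteum. It moved the other way. Normalised read counts were 0.552, 8.41, 2.11 and 1.27 CPM in flox/flox livers and 26.4, 19.0 and 36.0 CPM in hep-/- livers. The 2 groups were separated, but flox/flox replicate 2 held several times the level of the other 3 controls, and the coefficient of variation among controls was 117%, against a median of 21.4% over all tested genes. Akr1c18 had a log2 fold change of 3.14 ± 0.67 (SE), or 8.80-fold higher, and without flox/flox replicate 2 it was 4.37.

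These are the 2 members of the Akr1c cluster whose groups differed most in opposite directions, so their RefSeq promoter windows (GRCm38.p6, 250 bases before to 50 after the annotated start, 5′ to 3′) are shown. Capitals mark matches, on either strand, to any of 4 motifs searched. The STAT5 motif was spelled TTCNNNGAA. For nuclear receptors the core element AGGTCA was used. For steroid receptors such as the glucocorticoid receptor it was AGAACA, and the TATA box was taken as TATAAA. No matches overlapped in these windows. The Akr1c6 window lies at chr13:4434093-4434392 on the plus strand and the Akr1c18 window at chr13:4150597-4150896 on the minus strand.
Akr1c6: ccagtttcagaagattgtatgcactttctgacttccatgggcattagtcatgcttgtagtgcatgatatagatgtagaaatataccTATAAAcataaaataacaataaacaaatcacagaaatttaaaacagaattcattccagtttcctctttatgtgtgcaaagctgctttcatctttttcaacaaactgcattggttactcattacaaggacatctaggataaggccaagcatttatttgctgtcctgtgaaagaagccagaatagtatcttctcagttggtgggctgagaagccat
Akr1c18: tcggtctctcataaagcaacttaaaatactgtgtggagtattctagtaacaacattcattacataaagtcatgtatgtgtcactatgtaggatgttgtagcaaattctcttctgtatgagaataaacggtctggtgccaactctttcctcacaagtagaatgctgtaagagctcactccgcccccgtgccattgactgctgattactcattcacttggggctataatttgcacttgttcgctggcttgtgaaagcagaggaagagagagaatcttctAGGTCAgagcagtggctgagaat
The Akr1c6 window held 1 TATA box match, beginning at position −164 from the annotated start. The Akr1c18 window held 1 nuclear receptor element near its 3′ end, beginning at position 28, after the annotated start. Of all 32851 promoter windows, 13.6% held the TATA box, 16.3% the nuclear receptor element, 19.0% the steroid receptor element and 8.30% the STAT5 motif. Windows were found for 9 of the 10 members, all except Akr1c20, and of the other 7 members with one, Akr1d1 held 2 matches to the nuclear receptor element and Hsd3b2 held 1 to the steroid receptor element. The GC content was 36.0% for Akr1c6 and 42.3% for Akr1c18, below the median window at 52.7%, whereas the Srd5a1 window had 63.0% and 24 CpG dinucleotides. Such matches describe letters in a window and not bound factors.

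Akr1c14 encodes a 3α-hydroxysteroid dehydrogenase and varied widely within both groups. It had a normalised read count of 70.4, 121, 191 and 145 CPM in flox/flox livers and 176, 49.9 and 98.0 CPM in hep-/- livers. The groups overlapped over most of their range. The log2 fold change of −0.29 ± 0.40 (SE) was not called, and it changed sign to 0.057 without hep-/- replicate 2.

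Akr1c20 is the closest relative of Akr1c6 in sequence. It had a normalised read count of 52.6, 81.4, 103 and 73.7 CPM in flox/flox livers and 44.4, 21.3 and 52.2 CPM in hep-/- livers. The groups did not overlap, although the highest hep-/- liver at 52.2 CPM nearly reached the lowest flox/flox liver at 52.6 CPM. Akr1c20 had a log2 fold change of −0.98 ± 0.31 (SE), which was not called by edgeR and was called in 9 of 17 alternative analyses, DESeq2 among them.

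Seen along chromosome 13 in the RefSeq order of GRCm38.p6 (Akr1c14, Akr1c18, Akr1c13, Akr1c19, Akr1c12, Akr1c6, Akr1c20, Akr1c21), the 1 called increase sat between the uncalled Akr1c14 and 5 genes with negative log2 fold changes. The relatives outside the selected set were Akr1c13 at −1.82 ± 0.32 (SE, edgeR adjusted p = 0.00653), Akr1c19 at −1.27 ± 0.28 (edgeR adjusted p = 0.0145) and Akr1c12 at −0.78 ± 0.29 (edgeR adjusted p = 0.0839). Akr1c12 is named for its place in the row and not by a call, and Akr1c21 had too few counts to be tested.

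**Figure D2:**
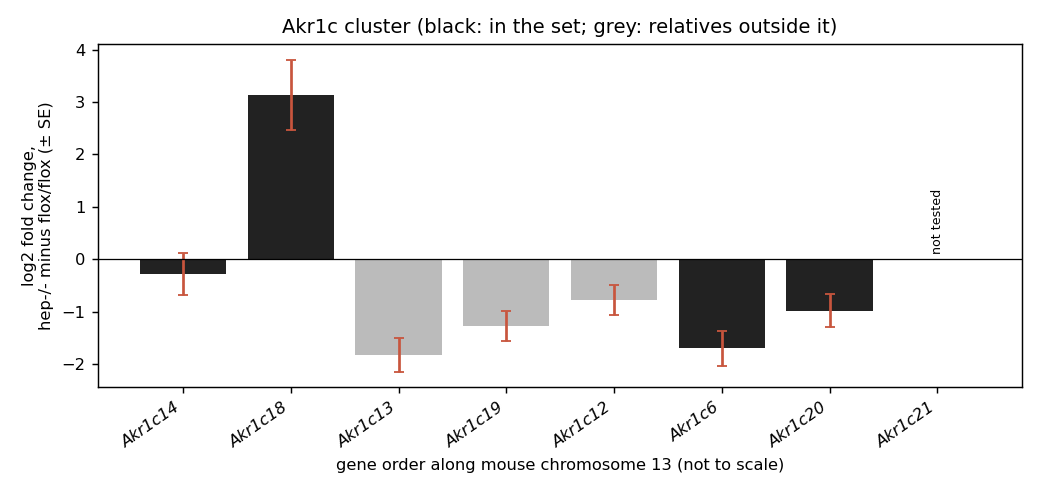
Log2 fold change (hep-/- minus flox/flox, bars, with SE as red lines) of the Akr1c genes in their order along chromosome 13, members in black and relatives in grey. Akr1c18, the second gene in the row, stands at 3.14, and the 5 tested genes after it lie between −1.82 and −0.78.

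Near copies matter for such a cluster, since reads can be split between them. Over the coding sequence Akr1c6 shared 92.3% of aligned bases with Akr1c20, 76.7% with Akr1c18 and 76.5% with Akr1c14. None of the 873 stretches of 100 bases in each coding sequence of Akr1c6, Akr1c14, Akr1c18 or Akr1c20 occurred in a transcript of another gene, whereas 15.3% of those of Akr1c12 occurred in Akr1c13. The counts of all 8 Akr1c genes together, which do not depend on how reads were divided within the family, were 784, 1149, 1390 and 1195 CPM in flox/flox livers and 618, 252 and 550 CPM in hep-/- livers. The summed level was thus lower in every hep-/- liver, with a log2 ratio of means of −1.25.

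The make-up of that family sum also differed. As a share of the summed FPKM (the count scaled by transcript length and library total, which allows levels of different genes to be compared), Akr1c6 accounted for 73.0% ± 1.89 in flox/flox and 55.4% ± 3.97 in hep-/- livers (SD, n=4 and 3). Akr1c18 accounted for 0.315% ± 0.370 and 7.65% ± 1.86. Akr1c14 had 5.30% ± 1.02 and 10.9% ± 3.31, and Akr1c20 had 7.30% ± 0.595 and 9.41% ± 0.965. None of these 4 shares overlapped between the groups. A share of Akr1c14 or Akr1c20 can be higher while its own level is not, because Akr1c6 makes up most of the sum.

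Akr1d1 encodes the 5β-reductase, which acts on steroid hormones and on bile acid intermediates. The normalised read counts were 96.1, 139, 180 and 126 CPM in flox/flox livers and 118, 58.0 and 140 CPM in hep-/- livers. The groups overlapped, and 1 hep-/- liver, replicate 2, was below all controls. Akr1d1 was not called, with a log2 fold change of −0.36 ± 0.30 (SE). Without hep-/- replicate 2 the value was −0.070, without hep-/- replicate 3 −0.63 and without flox/flox replicate 3 −0.19. Its coding sequence shared 58.1% to 60.0% of aligned bases with those of the 4 Akr1c members.

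Srd5a1, the type 1 5α-reductase, had the lowest coefficient of variation among controls of the 9 tested members (10.4%). Its normalised read count was 25.3, 23.3, 19.7 and 22.4 CPM in flox/flox livers and 9.42, 5.79 and 8.68 CPM in hep-/- livers. All hep-/- livers were well below all flox/flox livers. The group means were 22.7 ± 2.35 and 7.96 ± 1.92 CPM, a log2 fold change of −1.51 ± 0.22 (SE), or 2.85-fold lower. Of the 100-base stretches in its coding sequence, 27.4% also occurred in a transcript of the predicted gene Gm17108, so part of its reads could have been left uncounted or counted there.

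Of the 2 relatives of Srd5a1, Srd5a3, whose product reduces polyprenol for dolichol synthesis, fell by 0.87 ± 0.19 on the log2 scale (SE, edgeR adjusted p = 0.0127). Srd5a2, the type 2 5α-reductase, which is named after its values were seen, had a log2 fold change of 0.24 ± 0.29 (SE) and was not called.

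Hsd3b3 had the highest level per length of the 3 Hsd3b members. Its normalised read count was 65.0, 61.2, 89.8 and 76.3 CPM in flox/flox livers and 42.8, 32.2 and 55.4 CPM in hep-/- livers. No hep-/- liver reached the lowest control. The log2 fold change of −0.75 ± 0.23 (SE), or 1.68-fold lower, was called, but it lost its call when flox/flox replicate 2, 3 or 4 (−0.83, −0.64 and −0.73) or hep-/- replicate 1 or 2 (−0.75 and −0.57) was left out.

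Hsd3b2 had a normalised read count of 12.3, 10.1, 9.61 and 12.5 CPM in flox/flox livers and 12.5, 15.0 and 11.7 CPM in hep-/- livers. The groups overlapped, and this was the 1 tested member in which hep-/- replicate 2 was the highest and not the lowest of its group. The log2 fold change of 0.23 ± 0.20 (SE) was not called.

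Hsd3b5, known as a male-predominant 3-ketosteroid reductase of mouse liver, was close to absent from the counts. The counts were 1, 8, 0 and 2 in flox/flox livers and 1, 1 and 0 in hep-/- livers. In 6 of 7 livers they were at or under 3, which corresponds to 0.0690 to 0.0987 CPM, so no fold is given and a difference was not detectable at this depth. Of the 1023 stretches of 100 bases in its coding sequence 113 occurred in other genes, so most of it can be assigned uniquely.

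Hsd3b3 and Hsd3b5 differ widely in level yet have similar promoters, and their RefSeq windows are shown for that reason (GRCm38.p6, minus strand, chr3:98763079-98763378 and chr3:98645485-98645784). Capitals mark bases that match in the best local alignment of the pair, which covered 250 columns with 188 matches (75.2%).
Hsd3b3: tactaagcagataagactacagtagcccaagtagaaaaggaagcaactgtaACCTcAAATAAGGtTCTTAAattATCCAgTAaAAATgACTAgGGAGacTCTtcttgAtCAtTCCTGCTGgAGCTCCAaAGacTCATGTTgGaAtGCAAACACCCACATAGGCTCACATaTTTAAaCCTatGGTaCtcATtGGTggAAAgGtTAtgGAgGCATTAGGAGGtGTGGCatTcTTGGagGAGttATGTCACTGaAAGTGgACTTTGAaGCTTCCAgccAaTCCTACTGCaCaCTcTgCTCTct
Hsd3b5: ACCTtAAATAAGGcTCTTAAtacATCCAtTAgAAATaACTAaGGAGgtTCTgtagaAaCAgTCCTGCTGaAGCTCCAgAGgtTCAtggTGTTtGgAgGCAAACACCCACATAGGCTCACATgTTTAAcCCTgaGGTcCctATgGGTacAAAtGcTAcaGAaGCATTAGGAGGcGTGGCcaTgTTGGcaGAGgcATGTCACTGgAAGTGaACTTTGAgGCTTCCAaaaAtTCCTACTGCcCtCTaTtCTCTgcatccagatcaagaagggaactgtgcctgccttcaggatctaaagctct
Neither window held any of the 4 motifs. A second annotated start of Hsd3b3 gave a nearly identical window. Over the coding sequence Hsd3b3 shared 95.1% of aligned bases with Hsd3b2 and 79.8% with Hsd3b5, and 20.0% of the 100-base stretches of Hsd3b3 and 19.7% of those of Hsd3b2 occurred in another gene of the family.

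The values of Hsd3b2 and Hsd3b3 are therefore less certain than their spread implies, and their summed counts are of use. With Hsd3b1 and Hsd3b5 the sum was 77.4, 71.5, 99.4 and 88.9 CPM in flox/flox livers and 55.3, 47.3 and 67.1 CPM in hep-/- livers. It was lower in every hep-/- liver, with a log2 ratio of means of −0.58. By FPKM, Hsd3b3 made up 83.3% ± 3.27 of this sum in flox/flox and 71.4% ± 8.23 in hep-/- livers, and Hsd3b2 made up 16.5% ± 3.16 and 28.4% ± 8.10. Hsd3b4, Hsd3b6, Hsd3b8 and Hsd3b9 were not among the genes counted, so the sum does not include them. Hsd3b6 was among the genes that shared stretches with Hsd3b2 and Hsd3b3, and its effect on the sum is not known.

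Hsd11b1 was the member with the highest uncalled log2 fold change. The gene had normalised read counts of 235, 380, 342 and 393 CPM in flox/flox livers and 609, 370 and 658 CPM in hep-/- livers. Replicates 1 and 3 of hep-/- were above all controls, whereas replicate 2 was within the control range. The log2 fold change of 0.69 ± 0.26 (SE) was not called, but it was called by DESeq2 (0.70) and, without hep-/- replicate 2, by edgeR (0.91). H6pd, which supplies NADPH to Hsd11b1 in the endoplasmic reticulum and is named here after its values were seen, had a log2 fold change of −0.42 ± 0.19 (SE) and was not called.

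**Figure D3:**
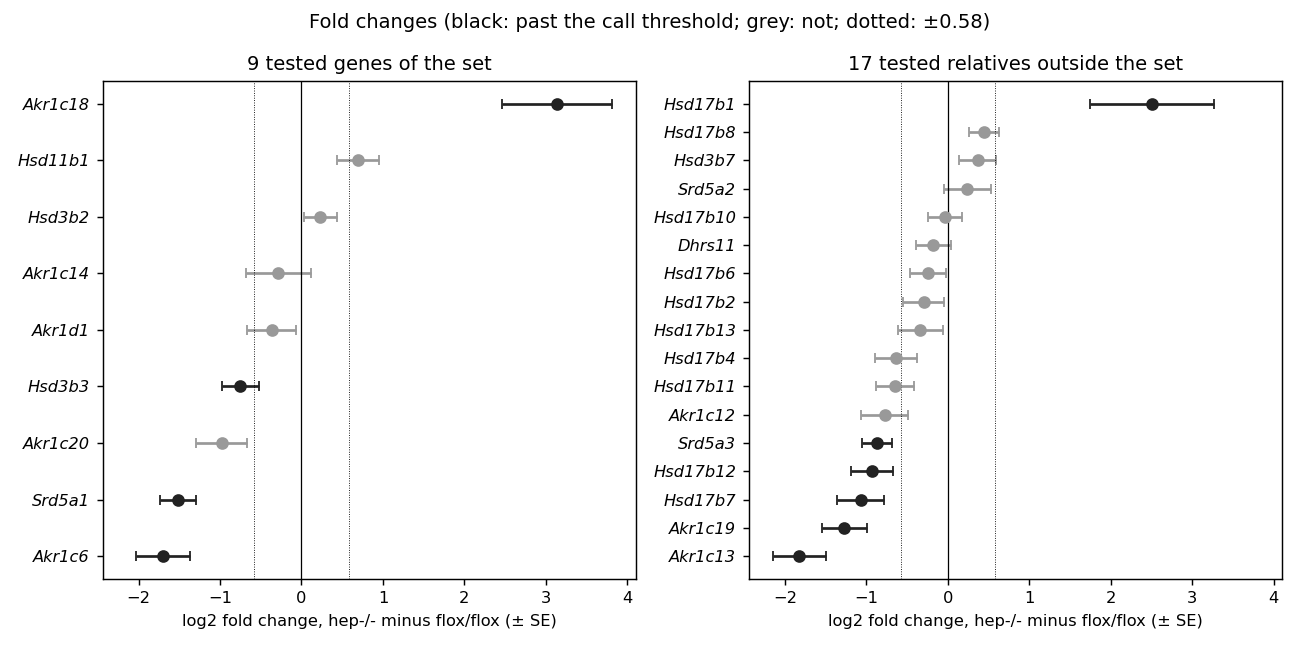
Log2 fold change (hep-/- minus flox/flox, points, with SE as bars) of the 9 tested members (left) and of 17 tested relatives (right). Black points were called and grey ones were not, and the members range from Akr1c6 at −1.70 to Akr1c18 at 3.14.

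Levels of different members were compared by FPKM, which divides by transcript length. In flox/flox livers the order of mean FPKM was Akr1c6 (593), Hsd11b1 (210), Akr1c20 (60.0), Akr1c14 (44.4), Akr1d1 (19.8), Hsd3b3 (19.8), Srd5a1 (7.76), Hsd3b2 (3.83), Akr1c18 (2.61) and Hsd3b5 (0.0437). Neighbours in this order whose livers overlapped were Akr1c20 and Akr1c14, Akr1c14 and Akr1d1, Akr1d1 and Hsd3b3, and Hsd3b2 and Akr1c18. In hep-/- livers the order of mean FPKM was Hsd11b1 (309), Akr1c6 (163), Akr1c14 (32.6), Akr1c20 (27.2), Akr1c18 (21.2), Akr1d1 (13.7), Hsd3b3 (10.6), Hsd3b2 (4.17), Srd5a1 (2.45) and Hsd3b5 (0.0129). Hsd11b1 thus took the first place from Akr1c6 without overlap, and Akr1c18 moved from the ninth to the fifth place. In hep-/- livers the overlapping neighbours were the chain of Akr1c14, Akr1c20, Akr1c18, Akr1d1 and Hsd3b3.

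**Figure D4:**
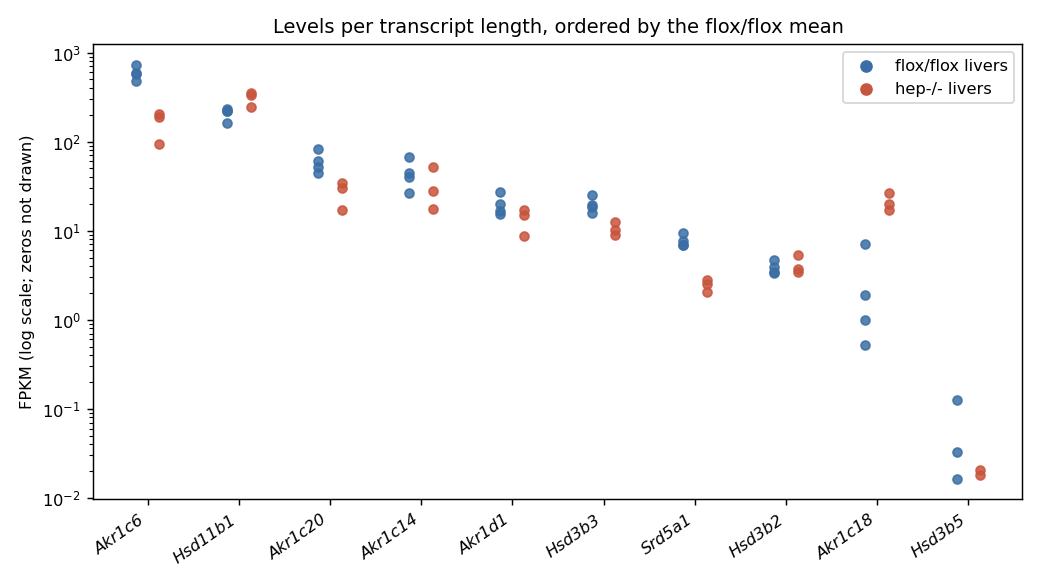
Level per transcript length (FPKM as deposited, log scale, zeros not drawn) of the 10 genes in flox/flox (n=4, blue) and hep-/- (n=3, red) livers, ordered by the flox/flox mean. Akr1c6 falls from first place, with means of 593 and 163 FPKM, below Hsd11b1 at 210 and 309 FPKM, and Akr1c18 goes from 2.61 to 21.2 FPKM.

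The livers themselves were ordered alike by many of the members. Among hep-/- livers, replicate 2 had the lowest normalised read count for 8 of the 9 tested members. The same share over all tested genes was not computed, so this order is not read as particular to the members. Outside the members, hep-/- replicate 2 was also the lowest of its group for Alb, at 70086 CPM against 92031 and 112940 CPM. For the bile duct marker Krt7 it was the highest, at 14.1 CPM against 3.05 and 3.16 CPM. Among flox/flox livers, replicate 1 was lowest for 6 and replicate 3 highest for 5. Members share the library and so are not independent evidence on a mouse.

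The pattern of Akr1c18 was matched to other genes by the distance of log2(CPM + 0.5) after centring. The same was planned for Hsd3b5, which had too few counts, and was not run for the other 8 members. Over the 7 livers the 3 nearest of the tested genes were Sult2a2 (root mean square distance 0.68), Adcy1 (0.78) and Myom1 (0.83). Sult2a2, a steroid sulfotransferase, had 0.0920, 7.03, 2.30 and 1.21 CPM in flox/flox livers and 57.7, 33.0 and 77.2 CPM in hep-/- livers. It shared with Akr1c18 the high value of flox/flox replicate 2 and the order of the 3 hep-/- livers.

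Genes around the members were described by lists, with calls read beside the shares of all tested genes given above. Of 17 tested relatives outside the set, 5 were called lower and 1 higher, with a median log2 fold change of −0.34. Beside Akr1c13, Akr1c19 and Srd5a3, Hsd17b7 of cholesterol synthesis fell by 1.07 ± 0.29 and Hsd17b12 of fatty acid elongation fell by 0.93 ± 0.25 on the log2 scale. Hsd17b1, an oestradiol-forming 17β-dehydrogenase, rose by 2.50 ± 0.76 from a mean of 0.213 CPM. Akr1cl, Hsd3b1, Hsd11b2, Hsd17b3 and Hsd17b14 had too few counts, as did Akr1c21.

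Among 9 genes that supply NADPH or electrons, Pgd of the pentose phosphate pathway fell by 0.62 ± 0.19 on the log2 scale and was the 1 called, and Cyb5a (0.18) and Por (−0.34) were not. In bile acid synthesis, which Akr1d1 serves, 3 of 14 genes fell and 1 rose. Cyp8b1, the 12α-hydroxylase, fell (log2 fold change −1.73 ± 0.38), as did Cyp7b1 of the alternative pathway (−1.39 ± 0.37) and Slc27a5, a bile acid-CoA ligase (−0.82 ± 0.24), whereas Cyp46a1 of cholesterol 24-hydroxylation rose by 2.02 ± 0.62. Scp2 (−0.69) and Hsd17b4 (−0.64) were not called.

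Steps that follow reduction of a steroid are hydroxylation and conjugation, for which 4 of 18 genes fell and 2 rose. Sult2a1 rose by 5.90 ± 0.63 and Sult2a2 by 4.40 ± 0.80 on the log2 scale, both sulfotransferases of hydroxysteroids. Ugt2b38 (−3.40 ± 0.91), Cyp2d9 (−2.62 ± 0.35) and Cyp7b1 (−1.39 ± 0.37) fell, while Cyp3a11 (−0.89) and Ugt2b5 (−0.56) were not called.

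Of 17 genes of glucocorticoid action, which Hsd11b1 serves, 7 rose and 1 fell. Mt2 rose by 2.43 ± 0.31, Mt1 by 2.36 ± 0.31, Cdkn1a by 2.20 ± 0.31 and Zbtb16 by 1.55 ± 0.43, and the mineralocorticoid receptor gene Nr3c2 fell by 1.35 ± 0.40. The other 3 that rose were Tsc22d3 (1.30), Dusp1 (1.02) and Per1 (0.90). Pck1 (0.18) and Tat (0.25), classical glucocorticoid targets of liver, were not called. Fkbp5 (0.75), G6pc (0.43), Lcn2 (0.42), Serpina6 (0.22), Klf9 (0.17), Sgk1 (0.014) and Nr3c1 (−0.41) were not called either. Among 11 tested steroid and partner receptors, Rxra fell by 1.15 ± 0.20 and Nr1i2, the pregnane X receptor, rose by 0.81 ± 0.18, with Hnf4a (0.12) and Ppara (−0.19) not called.

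Growth hormone and sex-biased lists were read because Hsd3b5 is male-predominant. Of 14 genes of the growth hormone axis, Cux2, a female-biased transcription factor, rose by 2.03 ± 0.45 and Socs2 by 1.28 ± 0.36, and Igf1 (0.71) and Ghr (−0.80) were not called. Of 19 tested male-biased genes 9 fell, led by Slco1a1 (−3.54), Ugt2b38 (−3.40), Cyp4a12a (−2.85), Cyp4a12b (−2.73) and Cyp2d9 (−2.62), with Mup20 (−0.45) and Serpina1e (−1.52) not called. Of 23 tested female-biased genes 7 rose and 2 fell, led by Sult2a1 (5.90), Cyp2b13 (4.70), Sult2a2 (4.40), Cyp2a4 (3.01) and Cyp3a44 (2.62), with Cyp4a10 (0.20) and Fmo2 (0.51) not called. The Y-linked Ddx3y had 986 to 2330 counts and Xist 0 to 10 in the 7 livers, as in males.

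**Figure D5:**
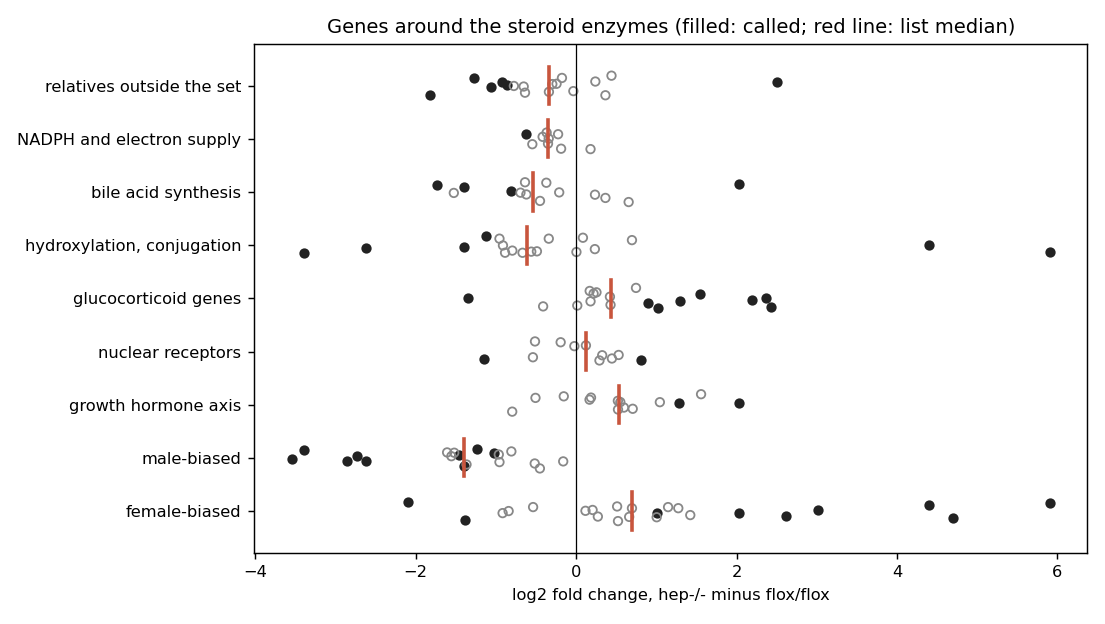
Log2 fold change (hep-/- minus flox/flox) of each tested gene in 9 lists around the members, filled where called and open where not, with the list median as a red line. The male-biased list has a median of −1.39 and the female-biased list one of 0.70, against 0.02 over all tested genes.

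Cell type markers were summed per liver beside these results. The 12 hepatocyte markers summed to 111020 to 156790 CPM in flox/flox and 115440 to 185500 CPM in hep-/- livers, and these ranges overlapped. Alb made up most of this sum, with 57197 to 90888 and 70086 to 112940 CPM, so the sum says little about the other markers. None of the 12 was called. Without overlap, Tdo2 lay lower (−1.31) and Apoa1 higher (0.70) in hep-/- livers. Pericentral hepatocyte markers summed to 11569 to 13036 and 3387 to 7048 CPM, with 5 of 12 called lower, and periportal markers to 12750 to 16304 and 9583 to 15882 CPM, with 2 of 12 called lower. Kupffer cell and macrophage markers summed to 1629 to 3644 and 755 to 945 CPM, with 8 of 12 called lower. The part of either in the members' values was not tested. Of 5 tested adrenal and gonadal steroid cell markers, Star rose by 1.54 ± 0.43 and Fdxr by 1.29 ± 0.37 on the log2 scale, with Cyp17a1 (1.27), Insl3 (0.20) and Fdx1 (−0.24) not called, while the defining Cyp11a1 had at most 4 counts in any liver. Kidney tubule markers summed to at most 0.322 CPM. Of 10 endothelial markers, Stab1 rose (1.11) and Kdr fell (−1.33). Sums of the stellate, endothelial, cholangiocyte and lymphocyte or neutrophil markers overlapped between the groups.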

How the data were processed

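Total RNA from the livers of 7 mice was extracted with TRIzol, and libraries were made with a VAHTS Universal V6 kit. The authors deposited counts, whole numbers per gene and liver without normalisation, and FPKM values, which matched the count divided by a fixed gene length and the library total in all 13374 genes compared (largest deviation 7.22e-06 percent). The submitters' processing notes name fastp, HISAT2, HTSeq, DESeq2, R 3.2.0 and GRCm39. Whether counting used strand is not given in the sources used here. Genes were filtered by filterByExpr (minimum count 10, minimum total count 15), scaled by TMM factors, and the groups were then compared by the quasi-likelihood test of edgeR 4.0.16 (R 4.3.3) with no covariate and Benjamini-Hochberg adjustment over 15179 genes. Standard errors come from the F statistic. Alternatives used DESeq2 1.42.0, limma 3.58.1 on log2(FPKM + 1) or log2(FPKM + 0.1), other normalisations and filters, and left-out livers.

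Members and lists were chosen with earlier results of these data known. All 10 members and B4galt1 are named, as are the called relatives and those with too few counts. From each other list, up to 5 called genes by size and up to 2 uncalled genes by mean CPM were to be named. Named beyond this rule are the whole glucocorticoid list, Akr1c12, Srd5a2, H6pd and some cell type markers. No member has a p-value, since the contrast guided the choice. Promoter windows come from RefSeq (GRCm38.p6), a different build from that of the counts. Protein comparison, planned at first, was not made, and coding sequences (longest open reading frame of GENCODE M21 transcripts) were compared instead. The test was tried on simulated data with known changes first. It called 40% of genes with a true log2 fold change of −1 and 40% of those with 1. At −2 it called 82% and at 2 it called 100%, with 5 false calls among 14968 tested genes. Changes near 1 on the log2 scale were thus often missed there. P-values measure the spread between these mice. The lowest chi-square per gene among the 21 pairs of libraries was 58.5, so no pair agreed within sampling noise.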

Additional observations from a re-analysis of the deposited data

How the results depend on the processing

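Over 17 alternatives, Akr1c6 (log2 fold change −1.93 to −1.38), Akr1c18 (2.79 to 4.37) and Srd5a1 (−1.66 to −1.33) kept direction and call, and 3 to 6 members were called, against 4 in the report (6 by DESeq2). Leaving out 1 liver at a time gave 3 to 5. Akr1c14 ranged from −0.84 to 0.057 with 1 liver left out, turning positive without hep-/- replicate 2. Hsd3b3 lost its call in 6 alternatives, Akr1c20 gained one in 9 and Hsd11b1 in 2. Among the 130 other listed genes tested, 40 were called in the report and 23 to 40 with 1 liver left out. Leaving out single livers gave 885 to 2396 called genes of all tested, fewest without flox/flox replicate 2, and unfiltered log2(FPKM + 1) gave 1330, against 2404 in the report, while DESeq2 gave 3271 and a filter of 1 count in any liver 2821 (53 and 54 of the listed genes). Limma on filtered FPKM, which changed test, scaling and genes tested (10914) together, had a median over all genes of −0.14 (pseudocount 1) or −0.18 (0.1) and 24.5% or 23.6% of calls higher, against 50.5% in the report. Unfiltered, it had −0.0032 and 18.2%, and no tested member changed direction in these 3 fits. The labels do not say that equal replicate numbers mark paired mice, and they were not treated as pairs. Correlations of deviations were −0.42, −0.10 and 0.09, and no hep-/- liver was best with its own number. With so few livers, each centred on its group, this check cannot exclude pairing. A replicate block, fitted on all the same, called 1225 genes and 3 members, Hsd3b3 (−0.74) being the one lost.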
